A study of Mus musculus with 48 samples.

Results

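The comparison described here asks whether the answer of Gaq lung fibroblasts to TRAP-6 changed when the biosensor was switched on. It rests on 12 of the 48 samples of the series, the 12 libraries of the Gaq line, in 4 groups of 3. For each gene, the TRAP-6 response with empty virus was subtracted from the TRAP-6 response with Cre virus, and the result is called the difference of responses.

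All 4 groups were primary lung fibroblasts of mice heterozygous for the Gaq*-BERKY3 allele, which stays silent until Cre recombinase acts. Cells were plated at 160000 per well. About 18 h later they received an adeno-associated virus at a 1000-fold dilution with 6 µg/ml polybrene. The virus carried Cre under the CMV promoter (AAV2/1-CMV-Cre, biosensor on) or no insert (AAV2/1-CMV-empty, biosensor off). For the last 90 min the medium was exchanged for fresh medium without agonist (rest) or with 100 µM TRAP-6. The groups are thus empty virus at rest, empty virus with TRAP-6, Cre virus at rest and Cre virus with TRAP-6. The labels do not say whether replicates came from separate mice or cultures, so p-values measure the spread between these samples, which may be technical. No cells lacking the biosensor allele entered this comparison, and what Cre recombinase does and what the biosensor does cannot be told apart.

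TRAP-6 is a peptide that mimics the tethered ligand of PAR1, the thrombin receptor encoded by F2r. PAR1 couples to Gq, which activates phospholipase C beta and so raises calcium and protein kinase C activity, to G12 and G13, which activate RhoA, and to Gi. In fibroblasts, thrombin receptors are known for driving contraction, matrix production, growth factor release and changes in clotting and plasminogen activation. A BERKY biosensor is a luminescent protein built to bind a G protein alpha subunit once it has exchanged GDP for GTP, in this line Gaq.

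The biosensor transcript followed the virus labels. It was at 0.408 ± 0.208 CPM (counts scaled to library size as in edgeR; SD, n = 3) with empty virus at rest and 0.321 ± 0.400 CPM with empty virus and TRAP-6. With Cre virus it was at 84.9 ± 4.91 CPM at rest and 90.0 ± 14.1 CPM with TRAP-6. F2r, the receptor, was at a mean of 416 CPM, and its difference of responses was 0.08 ± 0.06 (log2 ± SE of the fit, adjusted p = 0.850).

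Libraries held 16340789 to 32710883 counts. All 11 fibroblast markers had a mean of at least 1 CPM over the 12 libraries. Their summed level was 39187 to 42149 CPM with empty virus at rest, 39246 to 39981 CPM with empty virus and TRAP-6, 44704 to 47863 CPM with Cre at rest and 44776 to 49912 CPM with Cre and TRAP-6. Macrophage markers, 15 genes, summed to 456 to 676 CPM over the 12 libraries, and mesothelial markers, 8 genes, to 1019 to 1173 CPM. In the group with Cre and TRAP-6 the mesothelial sum was 1152 to 1173 CPM, against 1048 to 1139 CPM with Cre at rest. Smooth muscle and pericyte markers, 8 genes, summed to 2039 to 2324 CPM with Cre and TRAP-6 and to 1861 to 2022 CPM in the other groups. One of them, Cspg4, was lower with Cre after TRAP-6 (-0.76 ± 0.08, adjusted p = 1.1e-07) and was not called in the difference of responses (-0.45 ± 0.11, adjusted p = 0.146). Endothelial markers, 8 genes, summed to 11.9 to 12.3 CPM with empty virus and TRAP-6 and to 13.9 to 16.7 CPM in the other groups. Erythroid markers were at 0 except Alas2. Lung epithelial markers, 9 genes with Krt5 at 0, summed to at most 2.60 CPM, and lymphocyte markers, with Cd3e and Cd8a at 0, to at most 2.25 CPM. The part of these marker levels in the results was not tested, and in bulk RNA fewer cells of a type and less RNA per cell cannot be told apart.

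The response to TRAP-6 differed between the viruses in 25 genes. Of these, 24 had a larger (more positive) response with the biosensor on and 1, Car6, a smaller (more negative) one. In this wording a fall that was weaker or lost with Cre counts as a larger response. DESeq2 gave 35 larger and 6 smaller responses, and edgeR without a filter on low counts 59 and 8. The 25 genes were called by edgeR's quasi-likelihood test at a Benjamini-Hochberg adjusted p under 0.05, out of 15528 genes tested (0.161%). For comparison, 411 genes (2.65%) were called in the TRAP-6 response with empty virus, 523 (3.37%) in the response with Cre virus and 871 (5.61%) when both responses were averaged. The comparison of Cre with empty virus gave 411 calls (2.65%) at rest and 529 (3.41%) with TRAP-6. At an unadjusted p under 0.05, 1062 genes (6.84%) passed in the difference of responses, 600 larger with Cre (3.86%) and 462 smaller (2.98%). The number of calls moved with the libraries and with the fit: leaving out 1 library gave from 7 calls (without replicate 1 or 3 of Cre at rest) to 43 (without replicate 3 of Cre with TRAP-6), and 0 were left when the spread was shared with the Gai and Ga13 lines. Il1rl1, Lmcd1, Neat1, Spaca6, H1f2 and Serpinb2 were called in all 12 fits that left out 1 library, and each of the other 19 lost its call in at least 1 of them. These contrasts share the same 12 libraries. The difference of responses equals the Cre effect with TRAP-6 minus the Cre effect at rest, so a lower resting level with Cre enters it as a larger response.

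**Figure D1:**
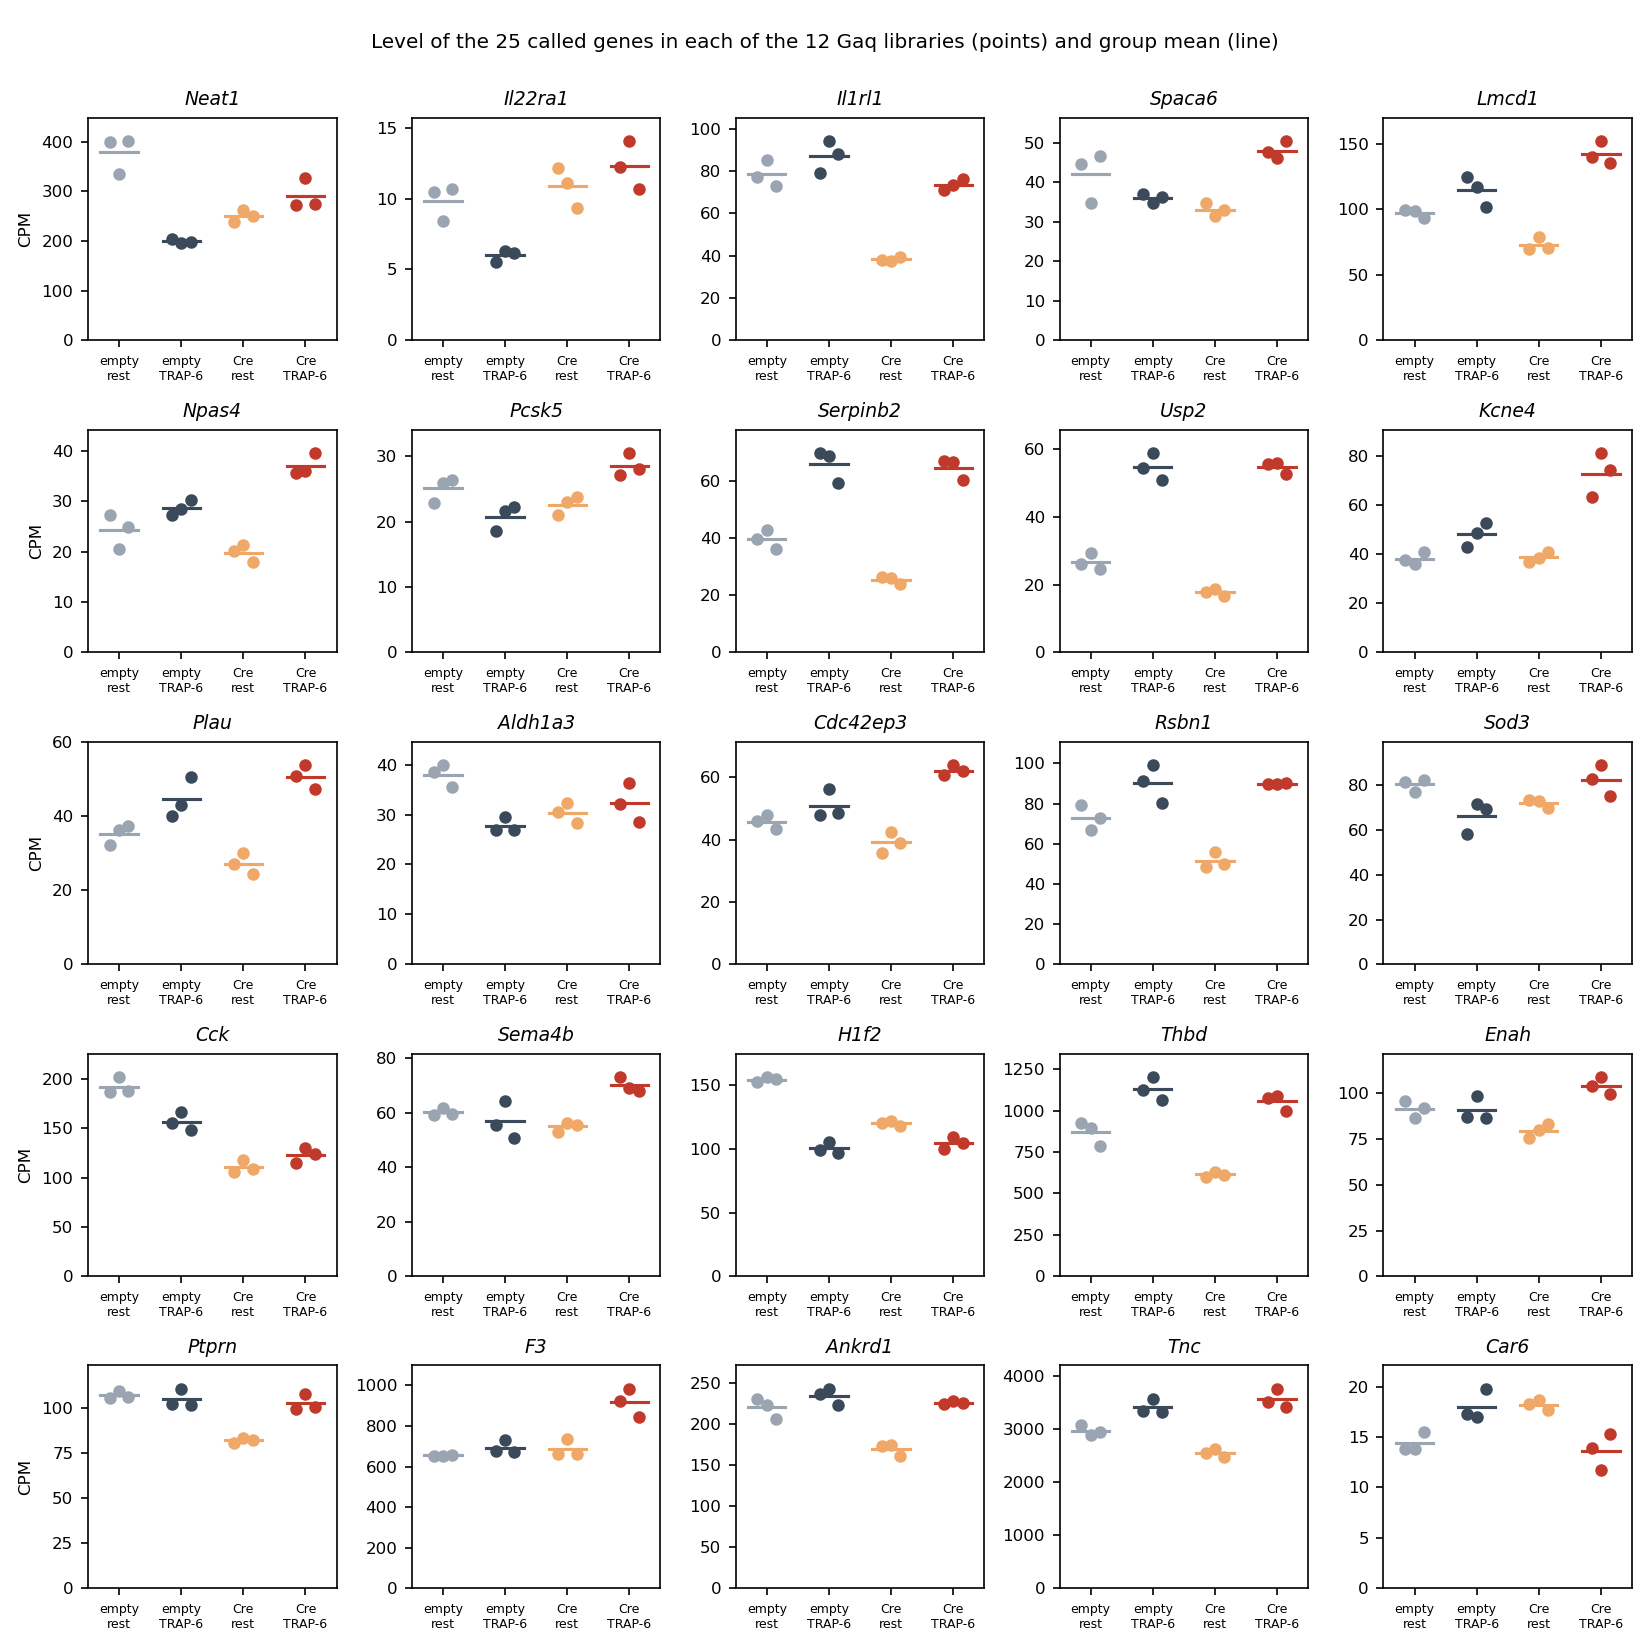
Level in CPM (linear axis from 0) of the 25 called genes in each of the 12 libraries (points) and the group mean (line), ordered by the difference of responses. Il1rl1 sits between 37.6 and 39.2 CPM with Cre at rest and at or above 71.1 CPM in every other library.

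Lmcd1, Neat1 and Spaca6 crossed over, being lower with Cre at rest and higher with Cre once TRAP-6 was given, with both Cre effects called. Lmcd1 encodes a LIM domain protein that represses GATA6 and acts in calcineurin signalling. Its level was 99.5, 99.0 and 93.4 CPM with empty virus at rest and 124, 117 and 102 CPM with empty virus and TRAP-6. With Cre it was 69.6, 78.7 and 70.3 CPM at rest and 140.1, 152 and 136 CPM with TRAP-6. No 2 of the 4 groups overlapped, with Cre at rest lowest and Cre with TRAP-6 highest. The log2 response was 0.24 ± 0.06 with empty virus and 0.97 ± 0.06 with Cre, and the difference of responses was 0.73 ± 0.09 (adjusted p = 7.41e-05).

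Neat1, the long non-coding RNA that builds nuclear paraspeckles, had the largest difference of responses among the 25 called genes. It read 400.3, 335 and 401 CPM with empty virus at rest and 205, 195 and 198 CPM after TRAP-6. With Cre it read 238, 262 and 249.6 CPM at rest and 273, 326 and 275 CPM after TRAP-6. TRAP-6 thus lowered it with empty virus, by 0.92 ± 0.08 on the log2 scale, while the response with Cre, 0.22 ± 0.08, was not called (adjusted p = 0.186). Between the viruses the responses differed by 1.15 ± 0.11 (adjusted p = 0.000359). Exons of 3 small predicted genes lie within Neat1 on the same strand.

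Spaca6, known as a sperm membrane protein needed for gamete fusion, shares exon sequence with Mir125a on the same strand, so its counts are uncertain. Its level was 44.6, 34.8 and 46.7 CPM with empty virus at rest, 37.1, 34.8 and 36.3 CPM with empty virus and TRAP-6, 34.8, 31.4 and 33.1 CPM with Cre at rest and 47.6, 46.1 and 50.3 CPM with Cre and TRAP-6. The response was called with Cre (0.53 ± 0.08) and not with empty virus (-0.23 ± 0.08, adjusted p = 0.175), and the groups with empty virus overlapped. Its responses differed by 0.76 ± 0.11 (adjusted p = 0.000891).

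The promoters of 4 genes with a larger response are shown because their windows carry letters known to be read by factors downstream of G proteins. Each window runs from 250 bases before to 50 after the start of the gene, 5′ to 3′ on its own strand, from RefSeq on GRCm38.p6. Capitals mark matches to the motifs searched on both strands: the cAMP response element core TGACG, with the full palindrome TGACGTCA that contains it, the AP-1 site TGANTCA, the TEAD site GGAATG, the NFAT core GGAAAA, the Egr site GCGTGGGCG and the CArG box of SRF.
Lmcd1 (chr6:112273508-112273807, plus strand): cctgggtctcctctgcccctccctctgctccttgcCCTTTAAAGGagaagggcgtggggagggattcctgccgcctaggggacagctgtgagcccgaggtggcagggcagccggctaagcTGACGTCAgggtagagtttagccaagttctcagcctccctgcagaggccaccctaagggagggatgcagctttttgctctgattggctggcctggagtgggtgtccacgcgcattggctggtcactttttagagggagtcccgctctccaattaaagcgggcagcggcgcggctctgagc
Npas4 (chr19:4989922-4990221, minus strand): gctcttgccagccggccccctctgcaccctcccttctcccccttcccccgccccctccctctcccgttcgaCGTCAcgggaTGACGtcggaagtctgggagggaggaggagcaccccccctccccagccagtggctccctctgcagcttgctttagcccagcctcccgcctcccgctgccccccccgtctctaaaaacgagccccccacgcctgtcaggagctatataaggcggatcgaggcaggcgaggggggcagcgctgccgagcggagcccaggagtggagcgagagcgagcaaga
Ankrd1 (chr19:36119795-36120094, minus strand): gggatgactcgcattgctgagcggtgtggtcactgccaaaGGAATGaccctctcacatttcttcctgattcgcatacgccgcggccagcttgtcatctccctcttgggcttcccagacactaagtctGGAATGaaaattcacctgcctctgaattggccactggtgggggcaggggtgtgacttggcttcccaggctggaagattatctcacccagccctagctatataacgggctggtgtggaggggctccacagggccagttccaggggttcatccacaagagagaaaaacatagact
F3 (chr3:121723287-121723586, plus strand): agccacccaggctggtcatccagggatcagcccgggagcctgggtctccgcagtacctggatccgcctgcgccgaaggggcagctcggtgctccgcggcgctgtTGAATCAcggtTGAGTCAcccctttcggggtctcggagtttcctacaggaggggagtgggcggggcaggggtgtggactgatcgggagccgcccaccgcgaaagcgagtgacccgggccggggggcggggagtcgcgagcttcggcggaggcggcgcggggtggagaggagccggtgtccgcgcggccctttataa

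Windows were found for 19 of the 24 genes with a larger response, and the table holds none for Neat1, Plau, Aldh1a3, Sod3 and Thbd. The TGACG core was in windows of 7 of the 19 genes (36.8%), against 23.0% of the 27025 genes in the promoter table. The AP-1 site was in 3 of 19 (F3, Il22ra1 and Serpinb2; 15.8% against 8.97%) and the TEAD site in 2 (Ankrd1 and Il1rl1; 10.5% against 16.6%). The NFAT core was in 5 of 19 (26.3% against 26.1%). Lmcd1 was the 1 gene of the 19 with the full palindrome (2.03% of all genes) and with a CArG box (1.81%), and the Egr site was in none (0.707% of all genes). A match is a description of letters in these windows, and binding was not measured.

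Receptors and a peptide ligand were among the called genes. Il1rl1, which encodes ST2, the receptor of interleukin 33, had the smallest p. Its level was 77.4, 85.3 and 72.9 CPM with empty virus at rest and 79.3, 94.1 and 88.2 CPM after TRAP-6. With Cre it was 38.0, 37.6 and 39.2 CPM at rest and 71.1, 73.5 and 76.4 CPM after TRAP-6. The resting level with Cre was lower by a log2 of -1.04 ± 0.07, and with TRAP-6 the Cre libraries were still below the empty ones (-0.25 ± 0.06, adjusted p = 0.0200). The response was 0.94 ± 0.07 with Cre and 0.15 ± 0.06 with empty virus (adjusted p = 0.253), a difference of 0.79 ± 0.09 (adjusted p = 8.22e-06).

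Il22ra1, a subunit of the interleukin 22 receptor, was the least abundant of the 25 genes. It read 10.4, 8.41 and 10.7 CPM with empty virus at rest, 5.52, 6.31 and 6.16 CPM with empty virus and TRAP-6, 12.2, 11.1 and 9.36 CPM with Cre at rest and 12.3, 14.0 and 10.7 CPM with Cre and TRAP-6. The empty-virus libraries with TRAP-6 were below all other libraries, and the remaining groups overlapped. Its response was -0.72 ± 0.15 with empty virus and 0.18 ± 0.13 with Cre, a difference of 0.90 ± 0.20 (adjusted p = 0.0455).

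Cck encodes cholecystokinin, a peptide hormone that acts through Gq-coupled receptors. Its level was 187, 202 and 188 CPM with empty virus at rest and 156, 167 and 148 CPM after TRAP-6, against 106, 118 and 109 CPM with Cre at rest and 114, 130.4 and 124 CPM after TRAP-6. Cre libraries were below empty ones in both states, by a log2 of -0.80 ± 0.05 at rest and -0.35 ± 0.06 with TRAP-6. TRAP-6 lowered Cck with empty virus (-0.29 ± 0.05), and the response with Cre was not called (0.15 ± 0.06, adjusted p = 0.180). For Cck the responses differed by 0.44 ± 0.08 (adjusted p = 0.00578).

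F3, Thbd, Plau and Serpinb2, known from clotting and plasminogen activation, are described together; they were grouped after their calls were seen, and no list of this system was tested. F3 encodes tissue factor, which starts the clotting cascade that makes thrombin. It was at 653, 654 and 659 CPM with empty virus at rest, 675, 731 and 672 CPM with empty virus and TRAP-6, 662, 735 and 659.7 CPM with Cre at rest and 925, 980.2 and 845 CPM with Cre and TRAP-6. The 3 libraries with Cre and TRAP-6 stood above all 9 others. Its responses differed between viruses by 0.34 ± 0.07 (adjusted p = 0.0298), with no call at rest (0.06 ± 0.05, adjusted p = 0.667).

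Thbd encodes thrombomodulin, which binds thrombin and turns it towards protein C. Its level was 927, 897 and 786 CPM with empty virus at rest, 1124, 1200.5 and 1064 CPM with empty virus and TRAP-6, 601, 632 and 612 CPM with Cre at rest and 1075, 1090.2 and 1000.4 CPM with Cre and TRAP-6. Thbd differed between viruses at rest (-0.50 ± 0.05, adjusted p = 2.08e-06), while the stimulated groups overlapped (-0.10 ± 0.05, adjusted p = 0.447). The difference of responses was 0.40 ± 0.08 (adjusted p = 0.0275).

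Plau, the urokinase plasminogen activator, and Serpinb2, its inhibitor PAI-2, showed the pattern of Thbd. Plau was at 32.1, 36.2 and 37.4 CPM with empty virus at rest and 27.0, 30.1 and 24.5 CPM with Cre at rest, and TRAP-6 brought it to 40.2, 42.9 and 50.5 CPM and to 50.9, 53.7 and 47.2 CPM. Its difference of responses was 0.57 ± 0.12 (adjusted p = 0.0380). Serpinb2 was at 39.7, 42.9 and 36.2 CPM with empty virus at rest and 26.5, 26.0 and 23.8 CPM with Cre at rest, and TRAP-6 brought it to 69.6, 68.6 and 59.2 CPM and to 66.8, 66.5 and 60.4 CPM. Both genes were lower with Cre at rest without overlap, and overlapped between viruses after TRAP-6. The difference of responses of Serpinb2, which shares exon sequence with Serpinb10, was 0.60 ± 0.10 (adjusted p = 0.00468). Plat, the tissue plasminogen activator, was not called (0.19 ± 0.15, adjusted p = 0.873). Pcsk5, a convertase that cleaves precursor proteins, had a difference of 0.62 ± 0.13 (adjusted p = 0.0276) and was higher with Cre after TRAP-6 (28.6 ± 1.68 against 20.8 ± 1.96 CPM).

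Nuclear proteins and regulators formed another part. Npas4, a transcription factor gene induced by calcium, was at 27.3, 20.5 and 24.997 CPM with empty virus at rest and 27.2, 28.5 and 30.3 CPM after TRAP-6. With Cre it was at 20.1, 21.3 and 18.0 CPM at rest and 35.6, 36.03 and 39.5 CPM after TRAP-6. The 3 libraries with Cre and TRAP-6 were above all others, and the resting groups overlapped. For Npas4 this gave a difference of responses of 0.67 ± 0.13 (adjusted p = 0.0203), with a response of 0.90 ± 0.09 with Cre and 0.24 ± 0.09 with empty virus (adjusted p = 0.217).

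Usp2, a deubiquitinase tied to the circadian clock, had the largest response to TRAP-6 of the 25 genes under either virus. It was at 26.1, 29.4 and 24.5 CPM with empty virus at rest and 54.4, 58.8 and 50.8 CPM after TRAP-6. With Cre it was at 17.8, 18.7 and 16.6 CPM at rest and 55.7, 55.9 and 52.7 CPM after TRAP-6. The stimulated libraries overlapped and the resting ones did not, so the responses of 1.04 ± 0.08 and 1.63 ± 0.08 differed by 0.59 ± 0.11 (adjusted p = 0.00969).

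H1f2, a linker histone gene, fell with TRAP-6 under both viruses, and fell less with Cre. It was at 152, 156 and 155 CPM with empty virus at rest, 99.0, 106 and 96.5 CPM with empty virus and TRAP-6, 120.0, 122 and 118 CPM with Cre at rest and 100.2, 109 and 105 CPM with Cre and TRAP-6. The stimulated groups overlapped, while the resting groups were apart. The responses of H1f2 differed by 0.42 ± 0.07 (adjusted p = 0.00227). Rsbn1, a nuclear protein gene, had the pattern of Usp2, with 73.0 ± 6.14 CPM (empty) and 51.5 ± 3.95 CPM (Cre) at rest and 90.3 ± 9.36 and 90.0 ± 0.360 CPM after TRAP-6. Its difference of responses was 0.50 ± 0.10 (adjusted p = 0.0275). Ankrd1, a nuclear cofactor and widely used readout of YAP, was at 219.7 ± 12.7 and 169 ± 7.75 CPM at rest and 233 ± 10.004 and 225 ± 1.84 CPM after TRAP-6, with a difference of 0.32 ± 0.07 (adjusted p = 0.0297).

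Among genes of the membrane, cytoskeleton and matrix, Kcne4, a potassium channel subunit, separated after TRAP-6. It was at 37.8, 35.9 and 40.8 CPM with empty virus at rest and 36.8, 38.7 and 40.9 CPM with Cre at rest. TRAP-6 brought it to 43.02, 48.8 and 52.6 CPM with empty virus and to 63.2, 81.2 and 74.3 CPM with Cre. The resting groups overlapped and the stimulated groups did not, and the difference of responses was 0.58 ± 0.12 (adjusted p = 0.0380).

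Tnc, which encodes the matrix protein tenascin C, was the most abundant of the 25 genes and had the smallest difference of responses, 0.28 ± 0.06 (adjusted p = 0.0276). Its group means were 2967 ± 90.2 and 2553 ± 71.8 CPM at rest (empty, Cre) and 3407 ± 133 and 3557 ± 173 CPM after TRAP-6. Cdc42ep3, an effector of Cdc42, and Enah, an actin filament elongation factor, had differences of 0.52 ± 0.10 and 0.40 ± 0.08. Sema4b, a semaphorin, had 0.43 ± 0.09 and Ptprn, a secretory granule protein, 0.35 ± 0.07. Sod3, the extracellular superoxide dismutase, and Aldh1a3, a retinoic acid synthesis enzyme, fell with TRAP-6 under empty virus (-0.27 ± 0.07 and -0.45 ± 0.08). With Cre neither response was called (0.19 ± 0.07, adjusted p = 0.140, and 0.09 ± 0.08, adjusted p = 0.737), and the differences were 0.46 ± 0.09 and 0.54 ± 0.12. Adjusted p-values of the 6 differences ran from 0.0197 (Cdc42ep3) to 0.0411 (Aldh1a3).

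Car6, which encodes a secreted carbonic anhydrase, was the 1 called gene with a more negative response under Cre. It was at 13.9, 13.8 and 15.5 CPM with empty virus at rest and 17.3, 17.0 and 19.7 CPM after TRAP-6. With Cre it was at 18.2, 18.7 and 17.6 CPM at rest and 13.9, 11.7 and 15.3 CPM after TRAP-6. The order of the viruses was thus opposite at rest and after TRAP-6, without overlap in either state. The response was called with Cre (-0.42 ± 0.11) and not with empty virus (0.32 ± 0.11, adjusted p = 0.123), a difference of -0.74 ± 0.15 (adjusted p = 0.0275).

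**Figure D2:**
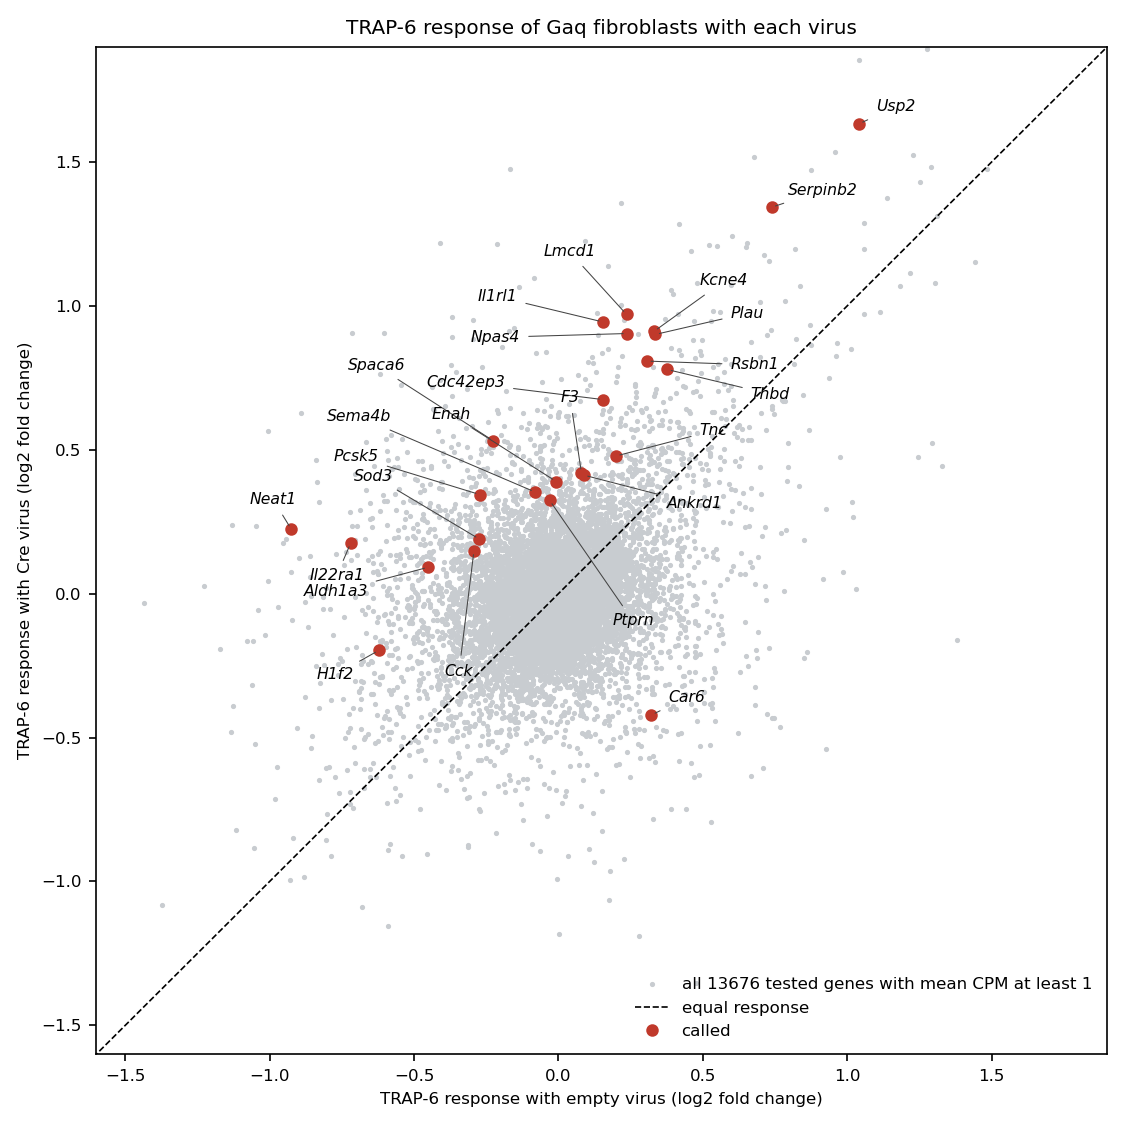
Log2 TRAP-6 response with empty virus (x axis) against that with Cre virus (y axis), for 13676 genes with a mean of at least 1 CPM (grey; 4 lie outside the axes) and the 25 called genes (red). The dashed line marks equal responses. The 24 genes above it had a more positive response with Cre, by a stronger rise or a weaker or lost fall, while Car6 lies below.

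From which resting level these responses started differed among the 24 genes with a larger response. At rest 15 were called lower with Cre and none higher, and 9 were not called, where 2.65% of all genes were called in either direction. With TRAP-6, 11 were called higher with Cre, 2 lower (Il1rl1 and Cck) and 11 neither, where 3.41% of all genes were called in either direction. A group of 10 genes was lower at rest and not called with TRAP-6, among them Usp2, Serpinb2, Thbd and Tnc. A group of 8 was not called at rest and higher with TRAP-6, among them Kcne4, F3, Npas4 and Il22ra1. The 3 crossing genes were called in opposite directions, Il1rl1 and Cck were lower in both states, and Enah was called in neither. The median Cre effect over the 24 was -0.35 at rest and 0.21 with TRAP-6, against 0.0004 and -0.001 over all genes tested. Because the 24 were chosen on the difference of these effects, their medians and counts describe the genes and support nothing further.

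**Figure D3:**
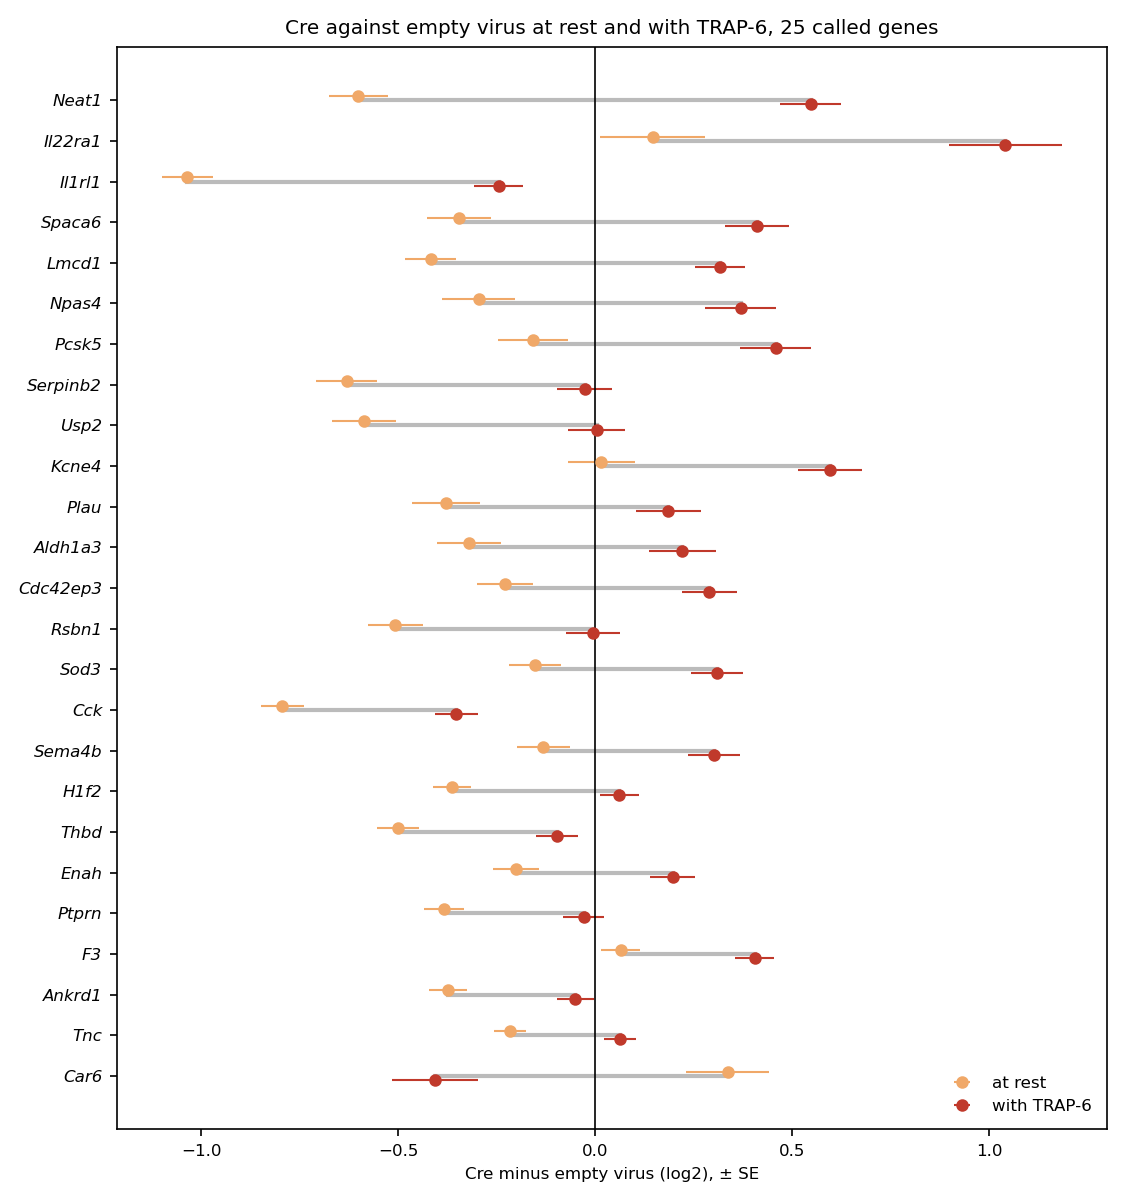
Log2 difference of Cre against empty virus at rest (orange) and with TRAP-6 (red), with the SE of the fit, for the 25 called genes. The grey bar between them is the difference of responses. For 21 of the 24 genes with a larger response the resting value lies below 0, against 7745 of all 15528 genes.

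The responses themselves were also of several kinds. Of the 24 genes, 8 rose with TRAP-6 under both viruses, 10 rose with Cre and were not called with empty virus, and 5 fell with empty virus and were not called with Cre (Neat1, Il22ra1, Aldh1a3, Sod3 and Cck). H1f2 fell under both. Over all genes, 2.65% were called in the response with empty virus and 3.37% in that with Cre. The 25 calls span absolute differences from 0.279 and mean levels from 9.76 to 3121 CPM. Nearest outside the threshold were 2 genes below 1 CPM, an unnamed gene model (adjusted p = 0.0532) and Ptpn5, a phosphatase gene with a mean of 0.300 CPM (adjusted p = 0.0598). The next, all above 1 CPM, were Wars1 (-0.31 ± 0.07, adjusted p = 0.0692), which encodes a tRNA synthetase, H1f0 (0.32 ± 0.07, adjusted p = 0.0743), another linker histone gene, and Dmpk (0.28 ± 0.07, adjusted p = 0.0867), a kinase gene. The median SE of the difference was 0.72 below 1 CPM, 0.31 from 1 to 10 CPM, 0.12 from 10 to 100 CPM and 0.069 above 100 CPM. No gene below 1 CPM was called, and 1 of 4627 from 1 to 10 CPM, so differences of the size called here were mostly not detectable at low levels.

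Genes that answered TRAP-6 in the mean of both responses were mostly not called in the difference. Of 587 rising genes, 15 (2.56%) were called in the difference, against 0.161% of all genes, with a median SE of 0.092 against 0.161. Of the same 587, 359 (61.2%) had a value above 0, with a median of 0.04, against 49.7% and -0.001 over all genes. Of 284 falling genes, 2 (0.70%) were called and 156 (54.9%) were above 0, with a median of 0.02. Among called genes with a mean of at least 1 CPM, the 10 with the highest mean response included Nfatc2 (1.75 ± 0.53, adjusted p = 0.389), Kcnk10 (1.15 ± 0.45, adjusted p = 0.623) and Nr4a2 (0.18 ± 0.14, adjusted p = 0.870), the values being differences of responses. Usp2 was the 1 called gene among these 10.

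The 19 gene lists of pathways and programmes held 481 distinct genes tested, of which 6 (1.25%) were called in the difference, against 0.161% of all genes. The lists were drawn up with earlier results known, and their median SE was 0.107. Of 26 calcium, calcineurin and NFAT genes, Lmcd1 was called, and the median difference of the list was 0.02. Nfatc2 had a larger value with a wide error, from a mean of 3.00 CPM. Of 39 Gq pathway and receptor genes none was called and none passed an unadjusted p under 0.05 in either direction (6.84% of all genes did), with a median of 0.02.

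SRF and MRTF targets, among them many genes of the actin cytoskeleton, had values above 0 in 28 of 30 members (49.7% of all genes). Their median was 0.11, and 8 passed an unadjusted p under 0.05, all larger with Cre (3.86% of all genes). None was called, and the smallest p was that of Filip1l (0.35 ± 0.11, adjusted p = 0.337), followed by Tpm1 (0.18 ± 0.06, adjusted p = 0.412), which encodes tropomyosin. Acta2 and Cnn1 stand both in this list and among the smooth muscle markers, whose sum was highest with Cre and TRAP-6. YAP and TAZ targets had Ankrd1 and F3 called of 23, with a median of 0.001.

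Of 31 immediate early and AP-1 genes, 24 rose and 3 fell in the mean response, where 5.61% of all genes were called in either direction. None was called in the difference (median 0.02). Nr4a3, a nuclear receptor gene, had 0.43 ± 0.11 (adjusted p = 0.320) and Jun, an AP-1 subunit, -0.29 ± 0.08 (adjusted p = 0.325). MAP kinase feedback genes gave no call of 19 (Dusp4, 0.23 ± 0.06, adjusted p = 0.113), nor did cAMP and CREB targets of 25. Of 34 extracellular matrix and myofibroblast genes, Tnc and Plau were called. Of 32 secreted growth factors and cytokines none was called, and 7 passed an unadjusted p under 0.05 upward (3.86% of all genes did). Inhba, the activin subunit, had 0.36 ± 0.08 (adjusted p = 0.179).

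Interferon response genes had a median of -0.18, with 6 of 33 above 0 and none called, where 49.7% of all genes were above 0. Their median Cre effect was 0.50 at rest and 0.27 with TRAP-6, against 0.0004 and -0.001 over all genes. The median response of the list was 0.005 with empty virus and -0.20 with Cre. In each state 1 of the 33 was called higher with Cre (of all genes, 2.65% and 3.41% were called in either direction). Ifit2 had the smallest p of the list (-0.45 ± 0.17, adjusted p = 0.592), while Ifit1 (-0.98 ± 0.95) and Ifit3 (-1.24 ± 0.90) had wide errors. Cell cycle genes had a median of -0.13 with 12 of 35 above 0, and unfolded protein and amino acid stress genes -0.09 with 5 of 24 above 0, with no call in either. Of 19 circadian clock genes, Usp2 was called. NF-kB, p53, heat shock, cholesterol synthesis, TGF-beta feedback and mitochondrial quality lists held no call. Lrrk2, a kinase gene of the last list, had 0.39 ± 0.11 (adjusted p = 0.316). Among markers, all 11 fibroblast genes were above 0 (median 0.09) and 7 of 8 mesothelial genes (median 0.19), against 49.7% of all genes. No marker of either list was called, and Krt8 had the smallest p of the mesothelial genes (0.52 ± 0.17, adjusted p = 0.437).

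**Figure D4:**
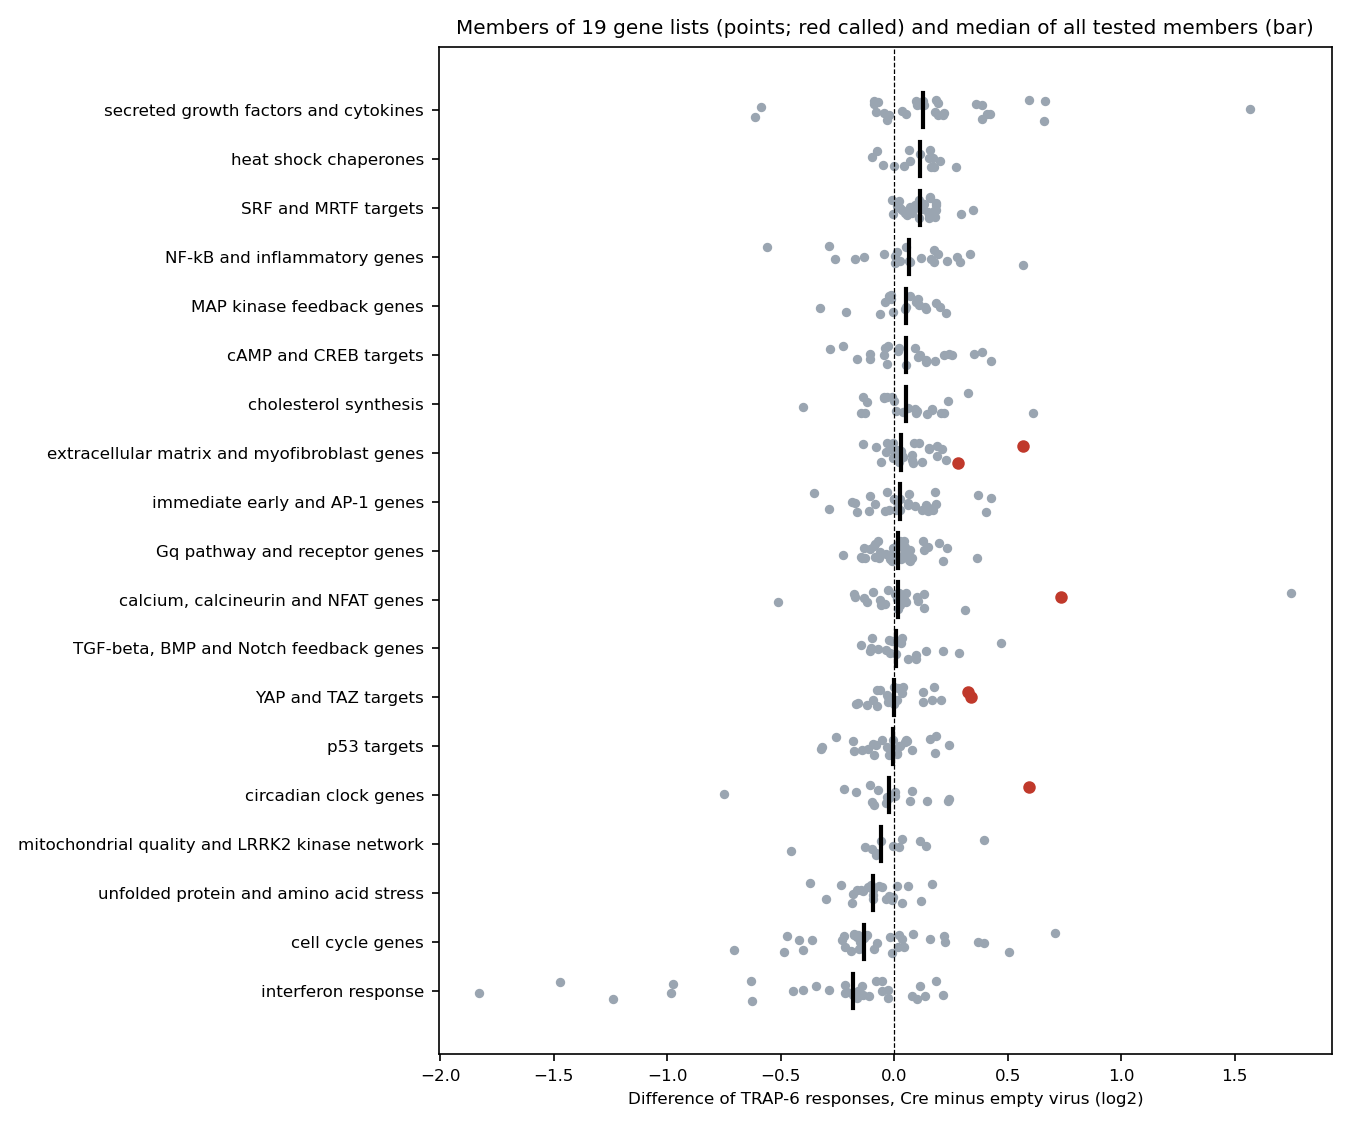
Difference of responses (log2) of each member with a mean of at least 1 CPM in 19 gene lists (grey points; red, called), with the median of all tested members as a black bar. Medians run from -0.18 (interferon response) to 0.13 (secreted growth factors and cytokines), and red points stand in the YAP and TAZ, calcium, matrix and clock lists.

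The same difference of responses can be read in the Ga13 and Gai fibroblast lines, 12 libraries each, which were not used to choose these genes and received the same viruses and 100 µM TRAP-6 but carry biosensors for other subunits. In Ga13, 13 of 15835 genes were called (0.0821%), and Lmcd1 and Thbd were among them. Of the 24 genes, 23 had a value above 0 in Ga13, the exception being Spaca6, with a median of 0.30, against 50.3% and 0.001 over all genes. An unadjusted p under 0.05 with a larger response was reached by 15 of the 24 in Ga13, where 4.15% of all genes reached it. Lmcd1 had 0.34 ± 0.07 in Ga13 (adjusted p = 0.0300), Thbd 0.37 ± 0.07 (adjusted p = 0.0300), and 3 more missed the threshold narrowly: Serpinb2 (0.63 ± 0.12, adjusted p = 0.0523), Rsbn1 (0.41 ± 0.09, adjusted p = 0.0523) and H1f2 (0.63 ± 0.11, adjusted p = 0.0646). Spaca6 had -0.02 ± 0.15 in Ga13. The Cre effect at rest lay below 0 for 20 of the 24 in Ga13, and none of these was called. The matching share of all Ga13 genes was not counted, so the 20 describes these genes only.

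Among the genes called in Ga13, Lrrk2 had 0.45 ± 0.07 there (adjusted p = 0.00694) beside 0.39 ± 0.11 in Gaq, and Inhba 0.42 ± 0.07 (adjusted p = 0.0300) beside 0.36 ± 0.08. In Gai, edgeR called no gene of 15980 in the difference of responses (0%), with 345 at an unadjusted p under 0.05. Of the 24 genes, 15 were above 0 in Gai with a median of 0.04, against 50.7% and 0.002 over all genes. None of the 24 reached an unadjusted p under 0.05 with a larger response (1.25% of all genes). The median SE over the 24 was 0.25 in Gai and 0.12 in Ga13, against 0.096 in Gaq.

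Fitting the 36 fibroblast libraries together tested whether the difference of responses itself differed between lines. No gene of 16749 was called for Gaq minus Gai (0%; 556 at an unadjusted p under 0.05) or for Gaq minus Ga13 (0%; 618), and DESeq2 gave 0 as well. In edgeR the same joint fit also called 0 genes in the difference of responses of Gaq itself. The absence of calls between lines therefore cannot show that the lines were alike. For Gaq minus Gai the value was above 0 for all 24 genes. These genes were chosen for a high value in Gaq, the first term of this difference, so that count supports nothing further. Of the 25, Rsbn1 (0.54 ± 0.16), Lmcd1 (0.74 ± 0.24), Tnc (0.26 ± 0.09) and Usp2 (0.80 ± 0.29) had the smallest unadjusted p. The smallest adjusted p among the 25 was 0.999 in edgeR's test. For Gaq minus Ga13, Spaca6 had the smallest unadjusted p, with 0.78 ± 0.32. None of the 25 is therefore shown to be particular to the Gaq line.

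**Figure D5:**
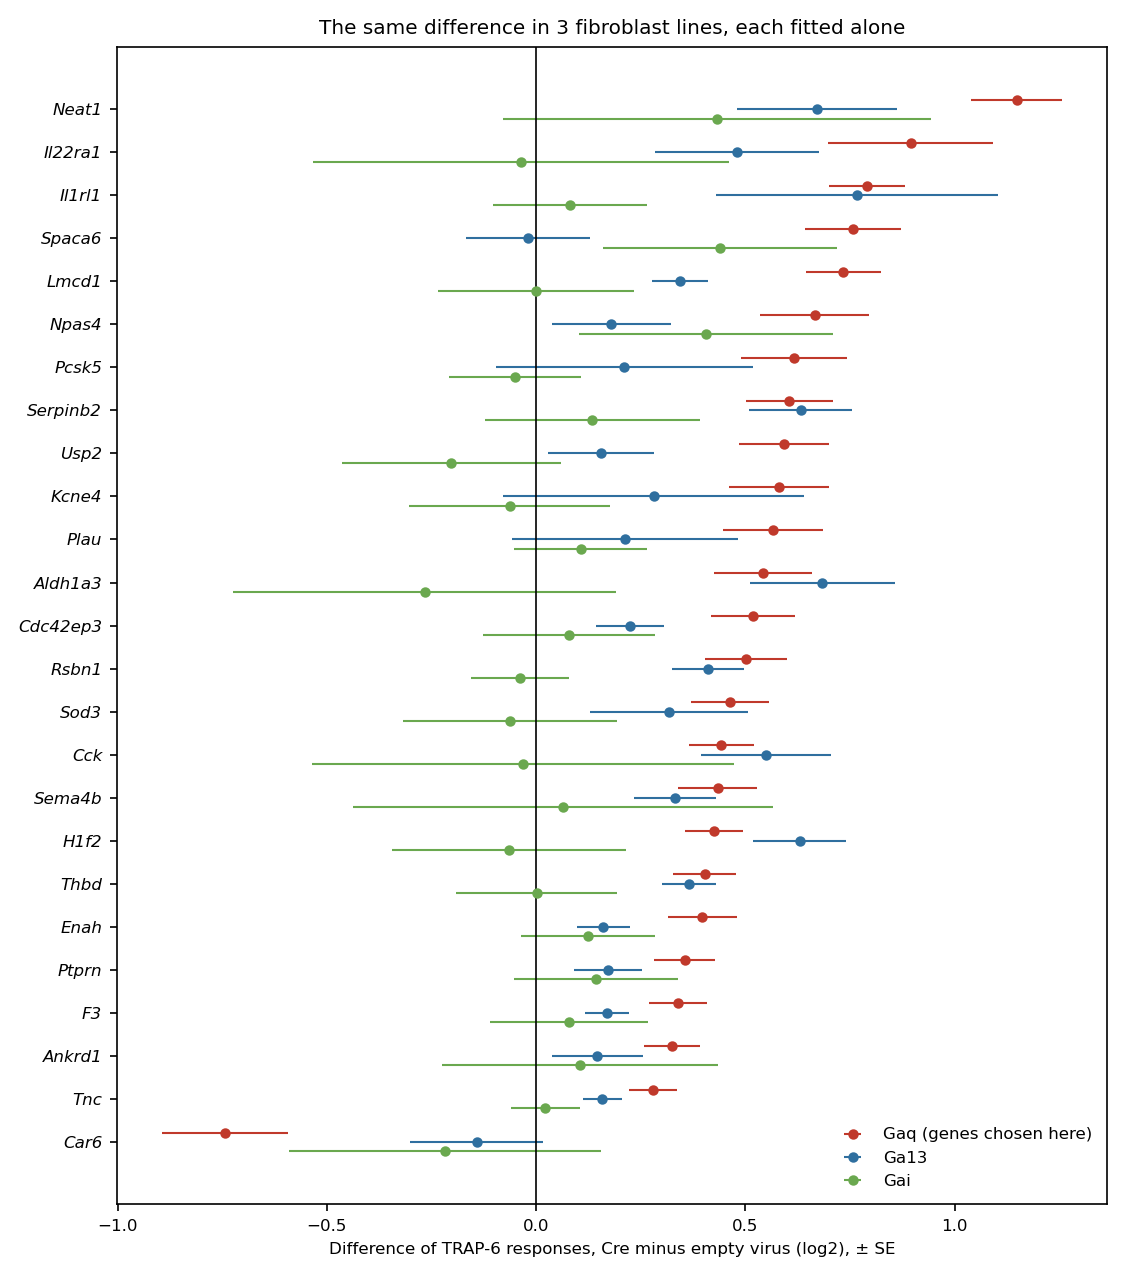
Difference of responses (log2, Cre minus empty virus) with the SE of each line's own fit, for the 25 genes called in Gaq (red), in Ga13 (blue) and in Gai (green). The Ga13 points lie above 0 for 23 of the 24 genes with a larger response in Gaq, and the Gai points spread around 0 with wider errors.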

How the data were processed

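Poly-A selected RNA of primary mouse lung fibroblasts was sequenced, with 3 libraries per group. The authors deposited whole-number read counts for each gene, unnormalized, with a separate table for every mouse line. The submitters' processing notes name fastp, Subread, featureCounts and GRCm39. Versions, annotation and strandedness are not given in the sources used here, so counts of genes that overlap another are uncertain. In GENCODE vM21, 25 of the 85 named genes share exon sequence with another gene (Neat1, Spaca6, Serpinb2, Usp2, Tnc, Rsbn1, Cdc42ep3 and Ptprn among the 25 called). RefSeq promoter windows are on GRCm38.p6, and no coordinates were converted.

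Tests used edgeR 4.0.16 under R 4.3.3 (DESeq2 1.42.0 served as an alternative): filterByExpr by group, TMM scaling, and a robust quasi-likelihood fit with 1 mean per group over the 12 Gaq libraries. The biosensor sequence was kept in the fit and left out of the tests. Tests were two-sided, adjusted by Benjamini-Hochberg over all genes, and a gene was called at an adjusted p under 0.05. CPM uses TMM-scaled library sizes, except in marker sums, which use total counts. In edgeR's tests, SE is that of the log2 value, worked out as its absolute size over the square root of the quasi-likelihood F statistic. The Gai and Ga13 lines were fitted alone and all 36 fibroblast libraries together. The scripts were tested on simulated data.

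Named genes were all called genes, the called members and the 2 members with the smallest p of each list, Lmcd1, Lrrk2, F2r, and the 10 highest and 6 lowest of the mean response at 1 CPM or more. The genes just outside the threshold, Ifit1 and Ifit3 were chosen after their values were seen. Not all genes that the rule names are given in the text. The comparison, the lists and the rule were chosen with earlier results of these data known. Alternatives tried were RLE scaling, no filter, DESeq2, a replicate block, a non-robust fit, a spread shared with other lines and leaving out each library.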

Additional observations from a re-analysis of the deposited data

How the results depend on the processing

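The number of genes called in the difference of responses depended on the settings. All 25 genes had the same sign under every alternative. They were chosen on this difference in the same libraries, so the kept sign supports nothing further. RLE scaling gave 25 calls and the non-robust fit 18. The count was 67 without a filter on low counts, 41 with DESeq2 (23 of the 25 among them, Car6 and Il22ra1 having no adjusted p), and 0 when the spread was shared with Gai and Ga13. With the spread shared with Ga13 alone, an alternative chosen after seeing the data, it was 11, with 10 of the 25 among them. In these cases the cause was not tested. Leaving out 1 library gave 7 to 43 calls: 7 without replicate 1 or replicate 3 of Cre at rest, 8 without replicate 1 of empty virus with TRAP-6, 9 and 15 without replicates 2 and 1 of Cre with TRAP-6, 11 without replicate 1 of empty virus at rest, and 43 without replicate 3 of Cre with TRAP-6. Neat1, Spaca6, H1f2, Lmcd1, Serpinb2 and Il1rl1 were called in all 12 of these fits. Cck lost its call without replicate 1 of Cre at rest (adjusted p = 0.0557) and Usp2 without replicate 3 (0.0515).

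Replicate numbers were not taken to pair the samples, because the labels do not say what same-numbered libraries share. Same-numbered libraries of different groups had correlated deviations of -0.0166 to 0.147 (median 0.0638), with 6 of 18 pairs over 0.1. Differently numbered ones had -0.122 to 0.0932 (median -0.0359), with 0 of 36 pairs over 0.1. Of 12 libraries, 7 correlated best with their own number. The same-number pairs were thus higher, and what they share was not tested. A replicate block in the fit gave 91 calls in the difference (72 larger, 19 smaller, all 25 among them), 762 in the response with empty virus, 751 for Cre at rest and 944 for Cre with TRAP-6. With the spread shared with Gai and Ga13 the last 3 counts were 252, 182 and 232. Leaving out 1 library gave 261 to 491 calls in the response with empty virus, 333 to 577 in that with Cre, 693 to 989 in the mean response, 259 to 523 for Cre at rest and 283 to 642 for Cre with TRAP-6. The tests between lines gave 0 calls under each alternative run. Depth limits the low genes, whose SE is largest.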
